A study of Mus musculus with 38 samples.

Results

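The genes described here are 9 inflammatory cytokines and activation genes, Tnf, Il1b, Il1a, Il6, Il1rn, Nos2, Ptgs2, Itgax and Il10, chosen by name and set beside the immediate early gene Fos. On the arrays they were represented by 12 probes of 40628, for 9 gene names of 29411. Gene expression was measured on 38 single-colour Agilent arrays of RNA from C57BL/6J mouse tissue labelled epididymal infiltrating macrophages (SVCs). The low fat control diet (LFC, 10% of calories from fat) and the high fat, high sucrose diet (HFC, 60% of calories from fat) each had 10 arrays, at days 6, 10 and 14 and weeks 0, 3, 6, 9, 12, 15 and 18. In the study's methods weeks were counted from day 14. Day 14 and week 0 were thus the same elapsed day, and were kept here as separate time points. The HF5, HF20 and HF75 groups, fed the same high fat diet with 5, 20 or 75 µg of the botanical formulation KAL-1, each had 6 arrays, at weeks 3 to 18. Mice were divided among the diets after weaning, at 3 to 4 weeks of age. Each diet and time point had 1 array, so arrays of a diet at different times stood in for replicates and every test below measured the spread between arrays, which may be technical in part. How many animals each array holds is not given in the sources used here. On 4 arrays of HF5 and HF20 the diet label named the other dose, and the group was taken from the source name.

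Tnf, Il1a and Il1b are the early cytokines of a macrophage response, and their messages are made and destroyed quickly. Il6 is released by macrophages and also by stromal and mesothelial cells. Il1rn, the interleukin 1 receptor antagonist, and Il10 restrain the same response, while Nos2 and Ptgs2 are inducible enzymes that make nitric oxide and prostaglandins. Itgax encodes CD11c, an integrin carried by dendritic cells and by macrophages of fat tissue in obesity. Fos is transcribed within minutes of stimulation, and the handling of a tissue, including its digestion into single cells, is a stimulus of that kind. NF-kappaB and AP-1, the factor of which Fos is a subunit, are the best known activators of these cytokine genes.

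RefSeq start sites (build GRCm38.p6) were found for 7 of the 9 members, and the 250 bases upstream of 4 of them are shown because these promoters differ in whether they hold the letters of an AP-1 site, the element Fos binds. Capitals mark matches to AP-1 (TGANTCA, both strands) or to the NF-kappaB consensus, and no 2 matches overlapped. The windows are chr5:30012864-30013113 (plus strand) for Il6, chr2:129309973-129310222 (minus strand) for Il1a, chr7:128129300-128129549 (plus strand) for Itgax and chr17:35202008-35202257 (minus strand) for Tnf.
Il6: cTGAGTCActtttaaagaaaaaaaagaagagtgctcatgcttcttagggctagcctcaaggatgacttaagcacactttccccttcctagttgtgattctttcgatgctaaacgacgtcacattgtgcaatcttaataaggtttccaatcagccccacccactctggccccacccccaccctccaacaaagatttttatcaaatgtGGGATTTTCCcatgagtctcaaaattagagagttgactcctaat
Il1a: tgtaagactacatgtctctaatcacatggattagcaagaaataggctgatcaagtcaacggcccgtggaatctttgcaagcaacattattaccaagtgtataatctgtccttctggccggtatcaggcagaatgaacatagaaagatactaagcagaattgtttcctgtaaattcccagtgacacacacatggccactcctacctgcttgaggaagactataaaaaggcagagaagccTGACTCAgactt
Itgax: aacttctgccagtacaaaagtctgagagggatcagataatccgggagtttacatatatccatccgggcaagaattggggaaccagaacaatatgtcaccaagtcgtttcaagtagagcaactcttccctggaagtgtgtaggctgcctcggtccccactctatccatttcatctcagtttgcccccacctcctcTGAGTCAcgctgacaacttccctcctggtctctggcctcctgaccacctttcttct
Tnf: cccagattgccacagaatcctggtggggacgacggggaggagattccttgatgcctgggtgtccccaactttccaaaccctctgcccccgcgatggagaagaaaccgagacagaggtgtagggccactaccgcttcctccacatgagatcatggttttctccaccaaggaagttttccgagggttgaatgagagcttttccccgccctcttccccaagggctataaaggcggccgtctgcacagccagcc
The AP-1 letters stood 249 bases upstream of the start in Il6, 12 in Il1a and 56 in Itgax, and at 1 of the 3 start sites of Il1rn. They occurred in 4 of 7 members with a promoter, beside 7.82% of 27025 genes in the table. The NF-kappaB consensus stood 44 bases upstream in Il6 and in no other member, beside 4.46% of genes. The CRE letters (TGACGTCA) occurred in none of the 7 members and in 1.77% of genes. These are matches of letters and were not tested as binding sites.

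A level is given on the log2 scale as the processed signal of a probe divided by the 75th percentile signal of its array, so that 0 is the brightness of that percentile and 1 unit is a 2-fold difference. Levels of different probes were not compared with each other. Il1b and Il6 were well above background on 38 of 38 arrays, Tnf on 37, Ptgs2, Itgax, Il1rn and Il10 on 36 each, and Il1a on 26. Nos2 was well above background on 2 arrays, LFC at day 10 and HF75 at week 12, was not well above it on any array of HFC, HF5 or HF20, and was left out of the tests. The HF75 array of week 12 had 6257 outlier spots, and the LFC array of day 10 had 49. The 2 probes of Ptgs2 had a correlation of 0.99 over 38 arrays and those of Il1a 0.97 over 36. Those of Il1rn had 0.32 over 37, and the weaker of them was well above background on 8 arrays, so the brighter probe of each gene is given throughout.

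The arrays differed in brightness, with a 75th percentile signal from 25.8 on the dimmest (HF5 at week 12) to 1983. The macrophage markers Adgre1, Cd68 and Csf1r and the rest of an 11 gene list were each well above background on at least 19 of 38 arrays, and the mean level of the list (macrophage score) ran from −0.12 to 2.94. Markers of other cells were measured too, with list scores of up to 5.14 for adipocytes, 3.49 for mesothelial cells and 3.96 for epididymis. Fos divided the arrays. On 4 arrays, LFC and HFC at week 9 and LFC and HF75 at week 12, its level was −2.04, −1.24, −1.36 and 1.17, while on the other 34 it ran from 4.02 to 6.32 with a median of 5.02.

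Tnf, Il1b, Il6, Ptgs2 and Il10 were low on the same arrays. Tnf was −4.46 and −3.91 on the LFC and HFC arrays of week 9 and −5.02 and −3.86 on the LFC and HF75 arrays of week 12, beside −2.82 to 3.36 (median 1.51) on the other 34. Ptgs2 was −6.58, −4.73, −6.18 and −3.63 in the same order, beside −2.79 to 2.15 (median 0.19). Il10 was −7.89, −5.94, −6.54 and −4.99, beside −3.91 to 1.13 (median −1.63). For these genes and for Il1b, all 4 arrays lay below every one of the other 34. The lowest of the 34 for Tnf and Il10 was the HF5 array of week 12, the dimmest, where neither probe was well above background. The gap to that array is therefore uncertain for these 2 genes. Il1b was −3.87, −1.47, −3.17 and −0.34, beside 0.14 to 4.30 (median 3.15). Il6 was −5.41, −3.80 and −5.44 on the first 3 arrays and 1.13 on the HF75 array, beside 0.99 to 5.60 (median 3.68), so that the HF75 array overlapped the rest.

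Il1a was not well above background on any of the 4 arrays. Its level was −8.40, −8.34 and −8.96 on the first 3, was missing on the HF75 array, and was −7.14 to −1.47 (median −3.77) on 33 of the others. The antagonist Il1rn and the integrin Itgax were placed differently. Il1rn was −3.18, −1.88, −4.87 and −4.62, and the other arrays, from −4.38 to 0.64 (median −1.17), overlapped that span. Itgax was −0.15, −0.46, −2.15 and −1.78 and lay inside the −3.21 to 1.02 (median −0.997) of the other arrays.

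**Figure D1:**
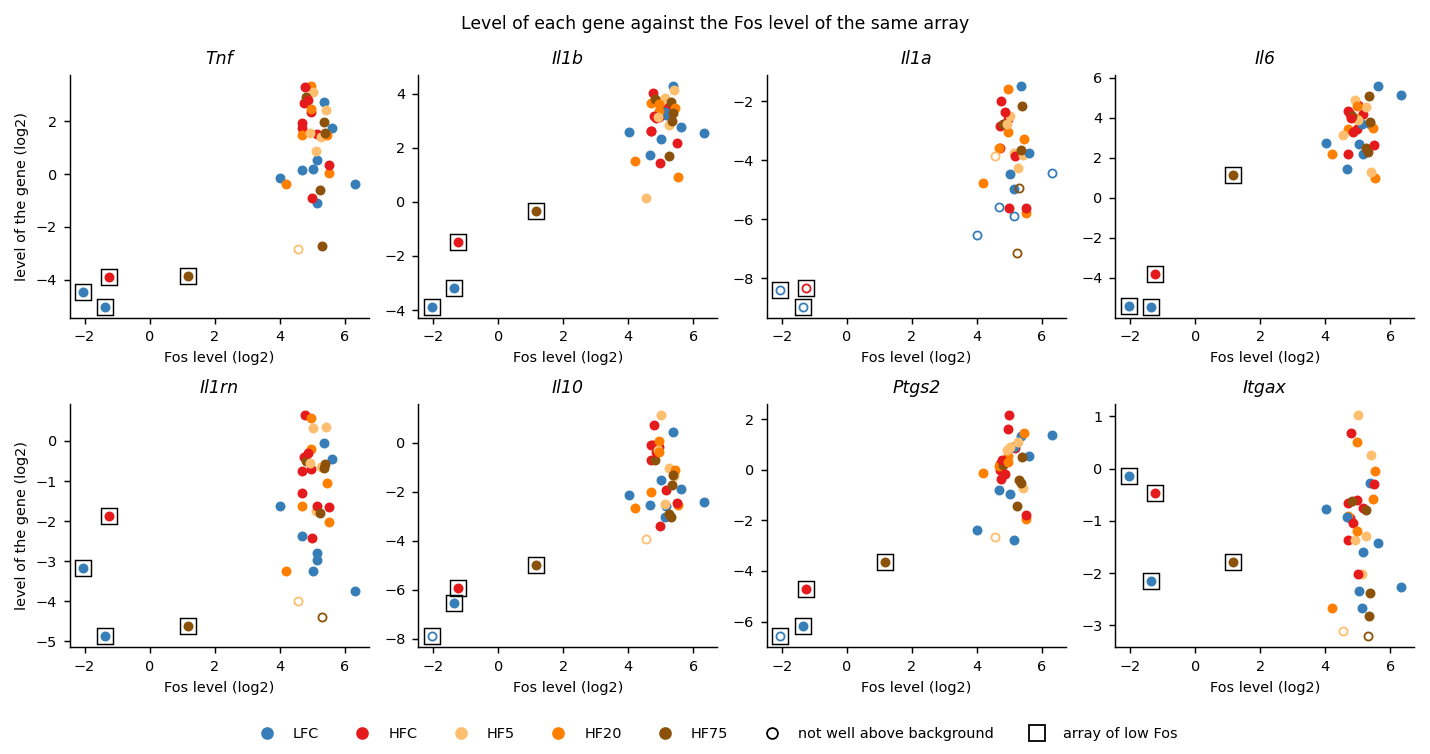
Level of each tested member against the level of Fos, both log2 relative to the 75th percentile of the array, with 1 point per array coloured by diet, open where the probe was not well above background. The 4 arrays, squared, with Fos at or below 1.17 hold the lowest values of Tnf, Il1b, Ptgs2 and Il10, while their Itgax values, −2.15 to −0.15, lie among those of the other 34 arrays.

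The same 4 arrays stood apart in other lists. The macrophage score there was 1.37, 2.08, 1.22 and 1.72, within the range of the other arrays. The adipocyte score, the mean level of 9 genes such as Adipoq and Plin1, was 5.14, 5.10, 4.79 and 5.14, above the −1.03 to 3.96 of all others. On each of the 4 arrays 7 of these 9 probes were saturated, against at most 2 on any other array, so these scores are lower bounds. The neutrophil score was −3.62, −2.77, −3.05 and −2.71, towards the low end of the −4.08 to 1.15 (median −1.04) of the others. Of its 9 markers, Ltf alone, at −4.71, −5.11, −4.44 and −4.68, lay below the lowest of the others (−2.62) on all 4 arrays. The rest of the markers, where measured, lay within the range of the other arrays, such as S100a8 at −0.43, −0.87, −0.84 and −2.03, beside −5.35 to 3.77. The score of 12 immediate early genes without Fos was 0.37, 0.75, 0.15 and 1.75, beside 3.77 to 5.43, where up to 6 of the 12 probes were saturated on an array. The score of 12 NF-kappaB subunits and feedback inhibitors was 0.15, 0.48, 0.26 and 0.78, beside 1.44 to 3.03. At week 9 the LFC and HFC arrays were scanned on 1 day and the dose arrays, all of high Fos, on another. At week 12 the 5 arrays were scanned on 1 day, and the LFC array shared its slide with the HFC array of high Fos. The part of adipocyte or neutrophil content, of the immediate early genes or of the scan day in the low cytokine levels was not tested. In bulk RNA, fewer cells of a type and less RNA per cell cannot be told apart.

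A slope on Fos was fitted between arrays, with diet and time point in the model, in log2 units of the gene per log2 unit of Fos. Of 33687 probes tested, 24.1% passed an adjusted p of 0.05 (limma, Benjamini-Hochberg), 13.1% with a rising slope and 11% with a falling one. Of the 8 members tested, 6 had a rising slope that passed. Il6 had the steepest of these, 1.27 (SE 0.10, limma adjusted p = 6.96e-09). It was followed by Tnf at 0.92 (SE 0.17, limma adjusted p = 4.2e-04), Ptgs2 at 0.89 (SE 0.10), Il10 at 0.86 (SE 0.12), Il1b at 0.82 (SE 0.10) and Il1a at 0.66 (SE 0.14, limma adjusted p = 0.00142). Il1rn, at 0.29 (SE 0.14, limma adjusted p = 0.128), and Itgax, at 0.06 (SE 0.09, limma adjusted p = 0.671), did not pass. Without week 9 the calls of Tnf (limma adjusted p = 0.129), Il1a (0.144) and Il10 (0.0504) were lost, and with normexp background correction that of Il1a (0.194). Il1rn passed with normexp (0.39, limma adjusted p = 0.033), without week 18 (0.41, 0.034) and with array brightness as a covariate (0.51, 0.00651).

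Genes that work beside the members differed in their slopes on Fos. Of 9 genes of message decay and cytokine suppression, 8 rose with Fos, among them Socs3 at 0.86 and Zfp36, which binds Tnf message and shortens its life, at 0.81. Of 12 NF-kappaB subunits and feedback inhibitors 9 rose, among them Tnfaip3 at 0.78 and Nfkbiz, a cofactor for the Il6 promoter, at 0.71. All 12 immediate early genes rose, including Fosb at 0.97 and Egr1 at 0.82. Of 10 cytokine receptors 3 rose, the decoy receptor Il1r2 at 0.50, Tnfrsf1b at 0.24 and Il10ra at 0.23. Of 8 genes of cytokine processing 3 rose, with Casp4 at 0.34, and of 12 signal adaptors and kinases 1 rose, Map3k8 at 0.28. Of 11 macrophage markers 2 rose, and of 9 adipocyte markers 4 fell and 1 rose. Falling slopes are given here for the adipocyte markers only. Some other list genes were high on the 4 arrays of low Fos. Casp1 was 1.54 to 2.03 there and Ptges2, of a prostaglandin list, 0.75 to 1.29, beside medians of 0.72 and −0.22 on the other arrays. The median slope was 0.84 over the 8 members and 0.04 over all probes tested.

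Without the 4 arrays of low Fos, the slope was called for 0 of 33598 probes (0%), 3693 had an unadjusted p under 0.05, and no member passed. The members' slopes then ran from −0.37 for Il1rn to 0.53 for Il6, with SEs of 0.44 to 0.85, so the slopes fitted on all arrays lay within 2 SEs of them. Over these 34 arrays Fos itself spanned 4.02 to 6.32. Its probe was saturated on 3 of them, where its level is a lower bound. Pearson's r of a member with Fos ran from −0.09 (Il10) to 0.26 (Ptgs2, permutation p = 0.141; Spearman's rho 0.21), and none of the 8 had a permutation p under 0.05, unadjusted. These values depended on the processing. With normexp background correction r was 0.53 for Il1b (permutation p = 0.00238) and 0.52 for Il6 (p = 0.00109). In the other direction it was −0.66 for Il1a (permutation p = 1e-05), −0.42 for Itgax (p = 0.0147) and −0.42 for Il10 (p = 0.0122). With quantile scaling it was 0.36 for Ptgs2 (permutation p = 0.0353), and the sign turned for Tnf (to 0.22), Il1rn (0.29), Itgax (0.07) and Il10 (0.17). Without week 6 it was 0.49 for Il6 (permutation p = 0.00566) and 0.46 for Ptgs2 (p = 0.0126).

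Over the same 34 arrays, 6 of the 8 members had an unadjusted permutation p under 0.05 with the macrophage score. The share of all probes that did so was not computed, so this count does not set the members apart. Il1rn had the highest r with the score, 0.85 (Spearman's rho 0.86), followed by Tnf at 0.83 (0.84), Il10 at 0.81 (0.83) and Itgax at 0.70 (0.63), each with a permutation p of 1e-05, the smallest that 100000 permutations can give. Il1a had 0.60 (0.68) over 33 arrays and Il1b 0.54 (0.56). Il6, at 0.31 (rho 0.28, permutation p = 0.072), and Ptgs2, at 0.24 (rho 0.26, permutation p = 0.172), did not reach an unadjusted p of 0.05. In all, 26 relations with Fos and with the macrophage and adipocyte scores were computed, and their p-values were not adjusted. Without the 2 arrays farthest from the median score, r was 0.81 for Il1rn, 0.82 for Tnf, 0.83 for Il10 and 0.63 for Itgax. Of deviations after diet and time point it was 0.81, 0.77, 0.72 and 0.84, and within each of the 5 diets it was positive for these 4 genes. With normexp background correction the r of Itgax was 0.18, that of Il10 0.33 and that of Il1a −0.18, while that of Il6 was 0.42 (permutation p = 0.014). Il6 also passed with quantile scaling (0.34, permutation p = 0.0485) and without week 15 (0.41, p = 0.028). The points share the array's scaling and its mixture of cells.

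**Figure D2:**
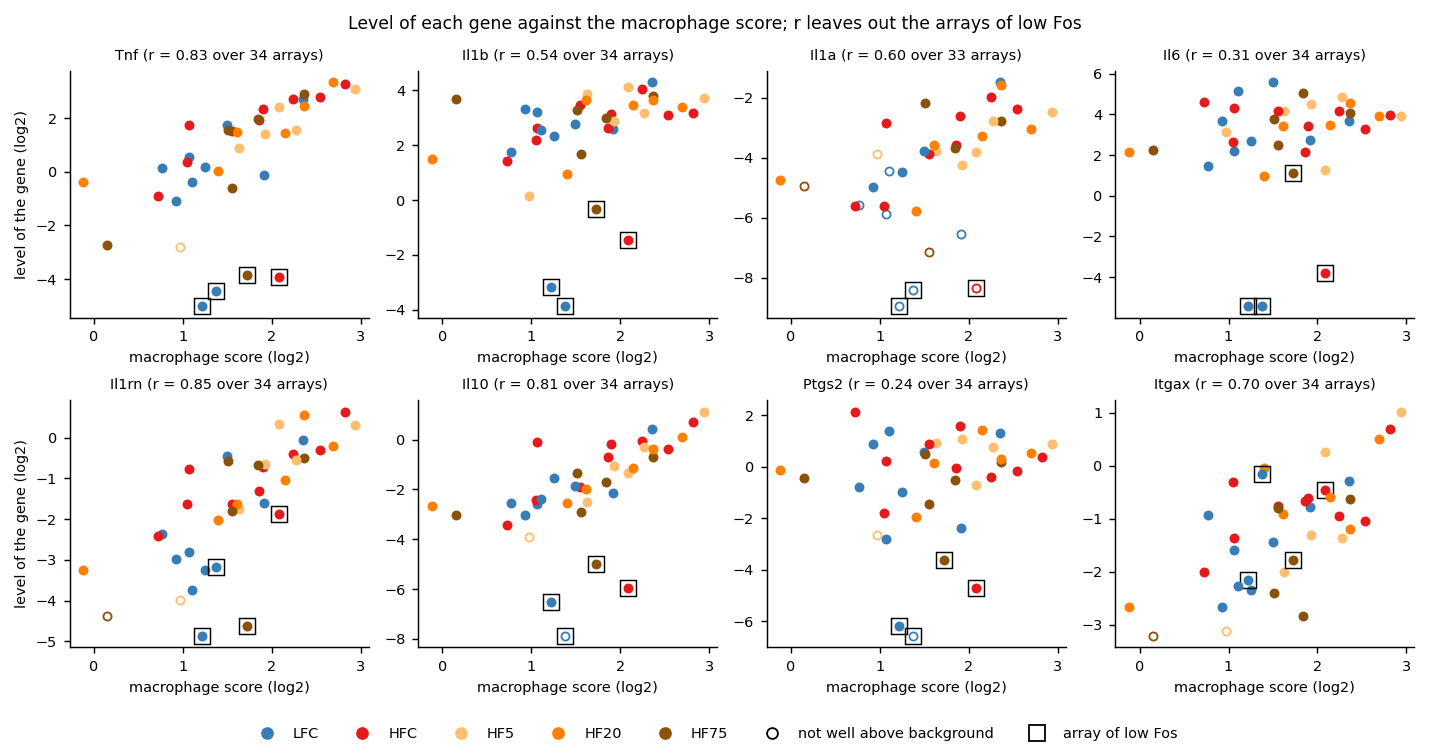
Level of each tested member against the macrophage score, the mean level of 11 macrophage genes, both log2 relative to the 75th percentile of the array, with 1 point per array coloured by diet, open where the probe was not well above background and squared for the arrays of low Fos. Over the 34 arrays of high Fos, Il1rn (r = 0.85), Tnf (0.83) and Il10 (0.81) lie along a line and Ptgs2 (0.24) and Il6 (0.31) scatter widely.

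Between members, r over the same arrays was highest for Tnf with Il1rn (0.91), Tnf with Il10 (0.88) and Il1rn with Il10 (0.82), a cytokine beside the antagonist and the suppressor of the response. Il6 and Ptgs2 had r = 0.61 with each other and 0.27 after diet and time point. Il6 with Itgax, at −0.15, was the lowest of the 28 pairs. The genes most like each member, out of 20950 genes well above background on at least 19 of the 38 arrays, were taken by Pearson's r. Over 38 arrays these were Oasl1 (0.94), Clec4e and the chemokine Ccl3 for Tnf, and Cxcl1 (0.91), Nfkbiz and Ccrl2 for Il1b. They were the monocyte chemokine Ccl7 (0.88), Tnfsf9 and Gpr84 for Il1a, and Ccl2 (0.91), Lilr4b (named Gp49a on the array) and Plek for Il1rn. For Il6 they were E-selectin, Sele (0.94), Gem and Ier3, for Ptgs2 Gem (0.89), Nfkbiz and Errfi1, and for Il10 Ccrl2 (0.92), Tnfsf9 and Tnfaip3. For Itgax they were Nckap1l (0.89), Cxcr3 and Myo1g. The 38 arrays include the 4 of low Fos. Over the 34 arrays of high Fos these became Inhbb (0.88) and Vcam1, the vascular adhesion molecule, for Il6, Cyp1b1 (0.89), Penk and the phospholipase Pla2g4a for Ptgs2, and Tlr2 (0.91) for Il10, while those of Itgax were the same 3. Those of Tnf became Lilr4b (0.95), Tbxas1 and Clec4e, and those of Il1b Ccl12 (0.86), Cd300c2 and Ccrl2. Il1a then had Ccl2 (0.80), Ccl7 and Tnfsf9, and Il1rn had Lilr4b (0.93), Ms4a6d and Cd44.

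The study's first comparison asked what the high fat diet changed against the low fat diet. The 8 members tested had higher mean levels in HFC than in LFC, except that Il1a turned with normexp background correction (−0.13) and with array brightness as a covariate (−1.08) and Il1b turned without the 4 arrays of low Fos, but none passed the test, and 0 of 31026 probes (0%) were called (limma, time point as a block), with 2819 at an unadjusted p under 0.05. Il1a entered this test through HFC alone, being well above background on 8 of 10 HFC arrays and 4 of 10 LFC arrays. Tnf was −5.02 to 2.73 (median 0.02) on the 10 LFC arrays and −3.91 to 3.29 (median 1.84) on the 10 HFC arrays. Il1rn was −4.87 to −0.06 (median −2.89) in LFC and −2.41 to 0.64 (median −1.04) in HFC. Il10 was −7.89 to 0.44 (median −2.48) in LFC and −5.94 to 0.72 (median −0.53) in HFC. The ranges of the 2 diets overlapped for all 8 members. At every time point but week 12 the 75th percentile signal was higher in HFC than in LFC. It was 936 against 262 at day 10, 1588 against 1465 at week 9 and 950 against 1537 at week 12. Diet and array brightness thus went together in most pairs. Apart from the fit with brightness as a covariate, the part of brightness in the higher HFC means was not tested.

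Paired by time point, Tnf differed by 1.76 (SE 0.81) and was higher in HFC at 8 of 10 time points, with an exact two-sided sign-flip p of 0.0645 (0.0117 without week 15 and 0.043 with normexp). Il10 differed by 1.57 (SE 0.67; 8 of 10, exact p = 0.041) and Il1rn by 1.49 (SE 0.58; 8 of 10, exact p = 0.041). Leaving out 1 time point raised the exact p above 0.05 for 8 of the 10 time points for Il1rn and for 7 of the 10 for Il10, and with normexp it was 0.154 and 0.104. Ptgs2 differed by 1.36 (SE 0.65; 7 of 10, exact p = 0.0742, and 0.0312 with normexp or without week 18 and 0.0391 without week 6), Il6 by 1.26 (SE 0.88; 6 of 10, exact p = 0.223) and Il1b by 0.86 (SE 0.63; 7 of 10, exact p = 0.279). Itgax differed by 0.71 (SE 0.34; 6 of 10, exact p = 0.0879), and Il1a by 0.97 over 9 time points (SE 0.60; 6 of 9, exact p = 0.18). The Il1a probe was well above background on 4 of the 10 LFC arrays, and the 4 time points where it was so in both diets gave differences of −1.85 to 1.12, 2 of them higher in HFC. The largest Il1a differences, 4.55 at day 6 and 3.05 at day 10, fell where the LFC array was much the dimmer of the pair. On those LFC arrays the probe was not well above background. The exact p could not go below 0.00195, and the limma adjusted p of the 8 members ran from 0.545 to 0.617.

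Week 12, where the LFC array was 1 of the 4 with low Fos and the HFC array was not, gave the largest difference for 7 genes: 9.43 for Il6, 8.31 for Tnf, 7.26 for Il10, 6.58 for Ptgs2, 6.33 for Il1b, 5.51 for Il1rn and 2.84 for Itgax. The week 12 HFC array had 4850 outlier spots and 91.6% of spots well above background, beside 50 and 71.8% on the LFC array. The part of array quality in these differences was not tested. At week 9 both arrays had low Fos, and the difference was 0.55 for Tnf and 2.40 for Il1b. Without the 4 arrays the comparison rested on 8 time points, and again 0 of 31244 probes (0%) were called, with 3008 at an unadjusted p under 0.05. The mean difference was then 1.10 for Tnf, 1.01 for Il1rn, 1.08 for Il1a, 0.81 for Il10, 0.65 for Ptgs2, 0.58 for Itgax, 0.20 for Il6 and −0.02 for Il1b, with exact p-values of 0.133 to 0.953 (the smallest possible 0.00781). The median over the members, Il1a included, was 1.31 with all arrays, beside 0.01 over all probes tested, and 0.73 without the 4 arrays.

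At week 15 the order was the other way for most members, with HFC below LFC by 2.65 for Tnf, 1.96 for Il1rn, 1.85 for Il1a and 1.53 for Il10, while Ptgs2 was higher by 1.59. At week 18 Tnf and Il1rn were higher in HFC by 3.21 and 3.43, and Il6 and Ptgs2 were lower by 1.88 and 1.56. Marker levels moved over the same pairs. The macrophage score was higher in HFC at 7 of 10 time points, by 0.44 in the mean, the mesothelial score by 1.77 and the score of epididymis genes by 2.18, and the adipocyte score was lower by 0.60, and their part in the members' differences was not tested. No gene of the receptor, processing, NF-kappaB, prostaglandin or integrin lists passed the test either.

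**Figure D3:**
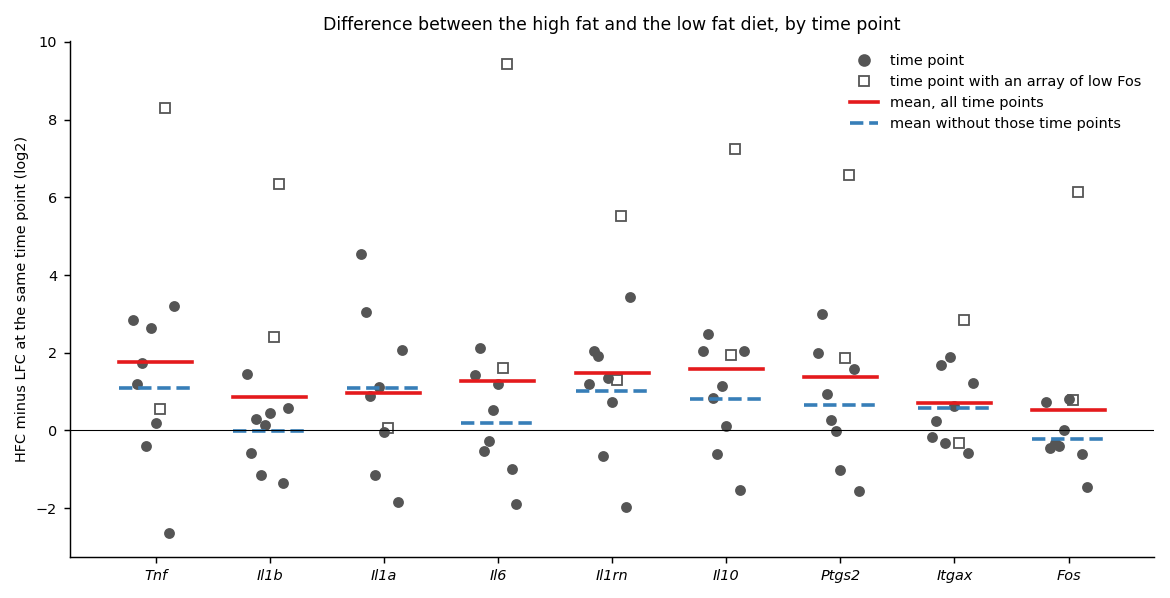
Difference in level between the HFC and LFC arrays of the same time point (log2), with 1 point per time point for each tested member and for Fos, squares where an array had low Fos, and lines for the mean with (solid) and without (dashed) those time points. The week 12 square is the highest for 7 members, 9.43 for Il6 and 8.31 for Tnf, and Il1a has no point there.

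The second comparison was of the KAL-1 doses with the high fat diet alone, at weeks 3 to 18. No probe of 33709 was called for HF5, HF20, HF75 or the mean of the doses against HFC (0%), with 1594, 516, 659 and 577 at an unadjusted p under 0.05. HFC against LFC over the same weeks gave 0 calls (0%) and 1087 at an unadjusted p under 0.05. Tnf was −2.82 to 3.11 (median 1.503) in HF5, −0.36 to 3.36 (median 1.47) in HF20 and −3.86 to 2.91 (median 0.49) in HF75, ranges that overlapped those of both diets above. The mean of the doses differed from HFC by 0.26 (SE 1.02) for Tnf, 0.77 (SE 0.76) for Il1b, 0.81 (SE 1.11) for Il6 and 0.49 (SE 0.86) for Il10. The sign of these 4 differences turned without week 9, where the HFC array had low Fos and the dose arrays did not. That of Tnf turned without week 15 as well (−0.19). Leaving out week 9 gave −1.09, −0.10, −0.58 and −0.64, and scan day in place of week as the block gave −0.91, −0.20, −0.43 and −0.77. Without the 4 arrays they were −0.91, 0.03, −0.46 and −0.48, of 33626 probes none was called (0%), and 720 had an unadjusted p under 0.05.

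Itgax was the member with the lowest unadjusted p among the doses. It was −3.21 to −0.63 (median −2.08) on the 6 arrays of HF75, −2.66 to 0.51 (median −0.75) in HF20 and −3.11 to 1.02 (median −1.33) in HF5, beside −2.01 to 0.69 (median −0.71) on the 10 HFC arrays. HF75 minus HFC was −1.29 (SE 0.46, limma p = 0.0105, adjusted 0.9999), and −1.81 (SE 0.51, limma adjusted p = 0.877) without the 4 arrays. The lowest HF75 value was on the week 3 array, a dim one with a 75th percentile signal of 88.4. Itgax was not well above background on 1 of the 6 HF75 arrays. The mean of the doses differed from HFC by −0.63 over 6 weeks, with an exact two-sided sign-flip p of 0.406, where the smallest possible was 0.0312. Il1a was higher by 1.59 (SE 0.72) in the mean of the doses, and by 0.47 (SE 0.49) without the 4 arrays. Ptgs2 and Il1rn differed by 0.29 and −0.27, and both signs turned with normexp background correction, to −0.16 and 0.09. The 4 arrays with conflicting diet labels bear on HF5 and HF20 and not on HF75.

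**Figure D4:**
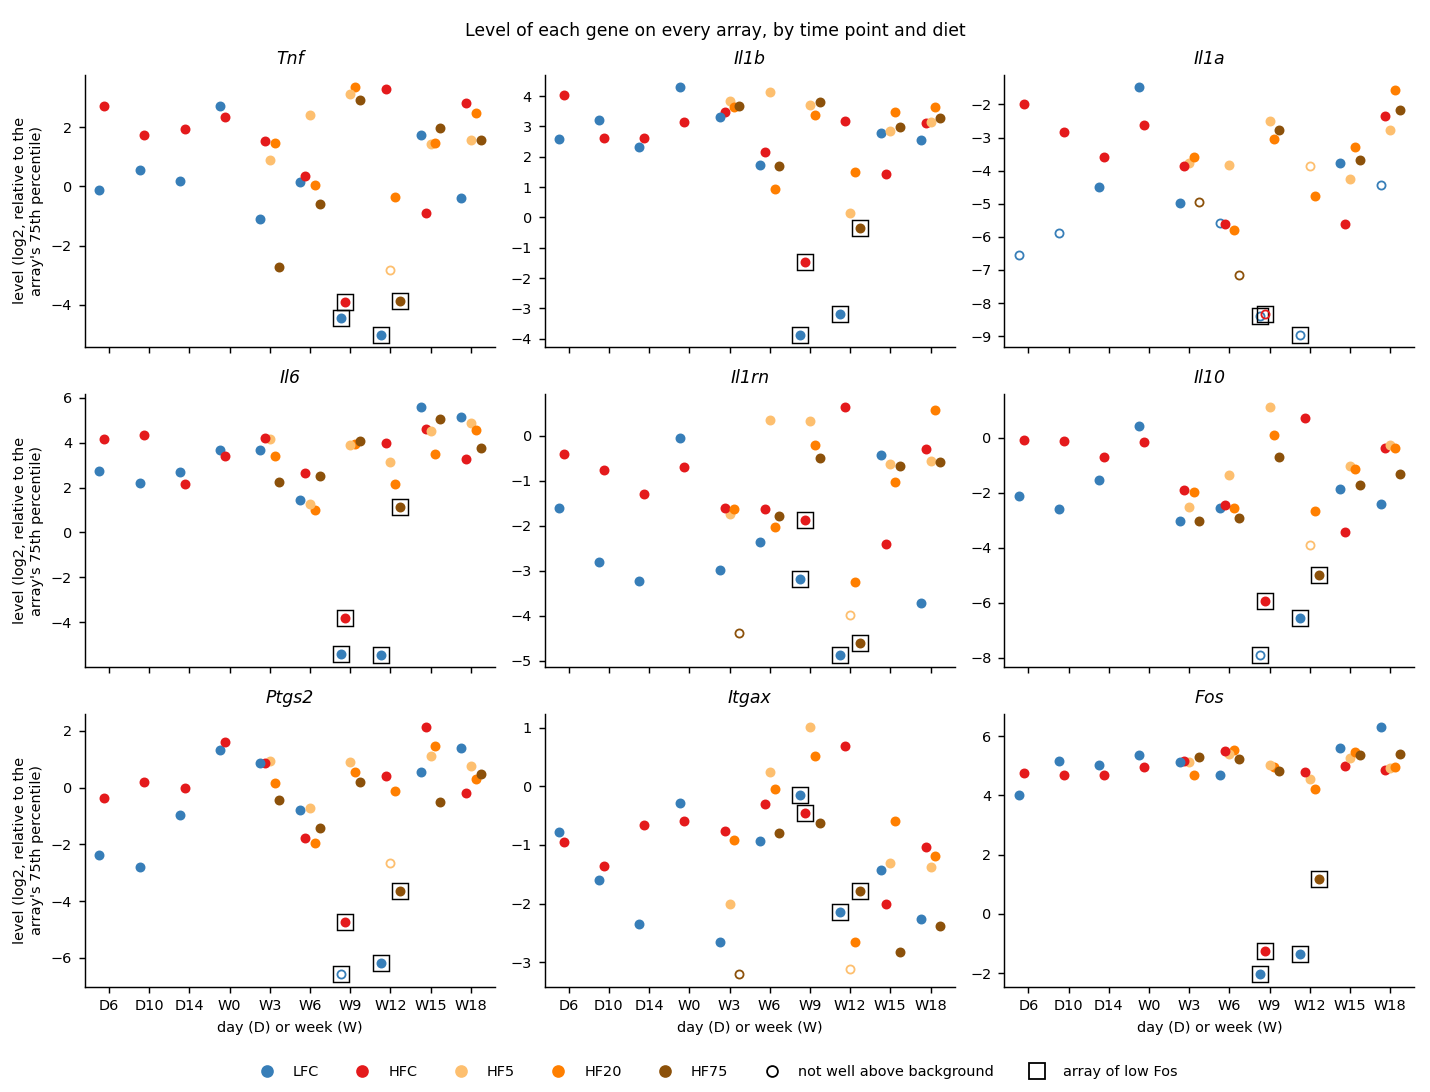
Level of each tested member and of Fos (log2 relative to the 75th percentile of the array) by time point, with 1 point per array coloured by diet, open where the probe was not well above background and squared for the 4 arrays of low Fos; Nos2 is not drawn. The squared points at weeks 9 and 12 are the lowest values of Tnf, Il1b, Ptgs2 and Il10, and Il6 at week 6 lies at 0.99 to 2.63 in all 5 diets.

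Across time, no member tested had a slope on elapsed day within LFC or HFC that passed (Il1a was not tested in LFC), and 0 of 28466 and 0 of 30872 probes (0%) were called, with 1108 and 2430 at an unadjusted p under 0.05. A test of any difference between time points, with diet in the model, called 38.9% of 33688 probes, among them 2 of the 8 members, Itgax (limma adjusted p = 0.0217) and Il1a (0.0439). The call of Itgax was lost with normexp background correction (0.203), without week 6 (0.0958) and without week 9 (0.174). That of Il1a was lost with normexp (0.528), with the mean of its probes (0.104) and without week 0, 3, 6, 12 or 18 (0.0523 to 0.122), while Il1b and Ptgs2 passed with quantile scaling (0.0481 and 0.0397). Without the 4 arrays it called 47.5% of 33599 probes and 5 of the 8 members. These were Il6 (limma adjusted p = 0.00307), Ptgs2 (0.00498), Itgax (0.0215), Il1a (0.0223) and Il10 (0.0379). Il6 was 0.99 to 2.63 (median 1.44) on the 5 arrays of week 6 and 3.48 to 5.60 (median 4.61) on those of week 15, with no overlap. Ptgs2 was −1.96 to −0.72 at week 6 and −0.51 to 2.15 at week 15. Itgax was −0.93 to 0.25 (median −0.30) at week 6, beside −2.83 to −0.59 (median −1.43) at week 15, ranges that overlapped. With week 6 left out as well, Ptgs2 passed (limma adjusted p = 0.0336), Il6 (0.0913), Il10 (0.113), Itgax (0.0835) and Il1a (0.152) did not, and 6794 probes were called. No slide or scan day held arrays of more than 1 time point, so time point, slide and scan day cannot be told apart.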

How the data were processed

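RNA from 38 mouse samples was labelled with Cy3 and hybridised to 1 Agilent array each, and per the labels the images were read with Agilent Feature Extraction 9.1. The deposited files hold spot intensity, already corrected for background by the scanner software, and the processed intensity was used as deposited. Detection, saturation and outlier calls are score columns of 0 or 1 that the scanner software set, per the file headers. A deposited table of the authors' log2 ratios of each array to the LFC array of its time point holds their own comparisons and was not used. Outlier and control spots were left out, spots of a probe were averaged, and the log2 intensity was shifted by the log2 75th percentile of its array. A probe was tested where it was well above background on at least 0.5 of the arrays of 1 diet.

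Linear models were fitted with limma 3.58.1 (R 4.3.3) on all probes and adjusted over all of them by Benjamini-Hochberg at 0.05. Single differences used exact sign-flip tests, and correlations 100000 permutations (scipy 1.17.1). HFC was compared with LFC with time point as a block, and doses with week as a block. No correlation with Fos over all 38 arrays is given, because the arrays form separate clusters of Fos. A gene was represented by its brightest probe, lists by count with at most 4 genes named by smallest p, and likeness by the 3 highest r. Named alternatives were quantile scaling, normexp background correction (offset 50), other filters, covariates, blocks, left-out arrays and a plain t-test of the HFC minus LFC differences over time points. The number of arrays limits the precision. Fits were tested on simulated data. The members and lists were chosen with earlier results of these data known.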

Additional observations from a re-analysis of the deposited data

Results flagged for a closer look

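Within each diet, the lowest and highest arrays were set against the rest of the diet for each member and for Fos, in 45 groups, and 6 stood apart by the ratio of the gap to the whole range, where chance gives about 1 in 20 groups. In HFC the week 9 array was the lowest for Fos (-1.24, ratio 0.881), Il6 (-3.80, ratio 0.71) and Il1b (-1.47, ratio 0.526). In HF75 the week 12 array was the lowest for Fos (1.17, ratio 0.866). In HF5 the week 12 array, the dimmest of the series, was the lowest for Il1b (0.14, ratio 0.68) and Tnf (-2.82, ratio 0.626), although its Fos level of 4.55 lay within the range of the 34 arrays of high Fos. In LFC, where the arrays of weeks 9 and 12 were both low, neither stood apart by this measure.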

How the results depend on the processing

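No probe was called for HFC against LFC or for any dose against HFC under any alternative run. These included a t-test of the HFC minus LFC differences over time points, which was not the study's own t-test within a time point. The fit without the time point block (no pairing of arrays by time) also gave 0. For HFC against LFC, the sign turned for Il1a with normexp (-0.13) and with array brightness as a covariate (-1.08), and for Il1b without the 4 arrays of low Fos (-0.0226), an alternative chosen after seeing the data. In the doses, taken as 1 mean, less HFC, normexp gave 0.0868 for Il1rn and -0.16 for Ptgs2. Fos as a covariate gave -0.51 for Tnf, -0.27 for Il6, -0.49 for Ptgs2 and -0.24 for Il10. Scan day as the block gave -0.91 for Tnf, -0.20 for Il1b, -0.43 for Il6, -0.73 for Ptgs2 and -0.77 for Il10. Leaving out the 4 arrays gave -0.91, -0.46, -0.56 and -0.48 for Tnf, Il6, Ptgs2 and Il10. Leaving out 1 week at a time gave -1.09 to 1.44 for Tnf, -0.10 to 1.47 for Il1b, -0.58 to 1.34 for Il6, -0.67 to 0.60 for Il1rn, -0.71 to 0.85 for Ptgs2 and -0.64 to 1.503 for Il10, the low end without week 9 in each case. The count of probes that differed between time points was 1758 with normexp, 4027 with the filter on every array, 6794 without the 4 arrays and week 6, and 5420 to 14213 with 1 time point left out, lowest without week 6. The count with a slope on Fos was 1683 with normexp, 4442 with the filter on every array, 0 without the 4 arrays, and 3743 (without week 9) to 8476 with 1 time point left out. It was 6667 without the time point block, where Itgax had -0.0478. Without week 9, Tnf (adjusted p = 0.129), Il1a (0.144) and Il10 (0.0504) no longer passed on Fos and Itgax had -0.0460, its range with 1 time point left out being -0.0460 to 0.0853. Il1rn had -0.37 without the 4 arrays. Correlations with Fos over 34 arrays became 0.22 (quantile) and 0.21 (normexp) for Tnf, with normexp -0.66 for Il1a, 0.53 for Il1b, 0.52 for Il6 and -0.42 for Itgax and Il10, and with quantile scaling 0.36 for Ptgs2, 0.29 for Il1rn, 0.0655 for Itgax and 0.17 for Il10, and with 1 time point left out they ran from -0.18 to 0.10 for Tnf, -0.13 to 0.12 for Il1a, -0.0578 to 0.28 for Il1b, -0.20 to 0.18 for Il1rn -0.19 to 0.11 for Itgax, 0.11 to 0.49 for Il6 and 0.13 to 0.46 for Ptgs2, both highest without week 6. The correlation of Il1a with the macrophage score was -0.18 with normexp. Within HFC, 0 to 1 probe had a called slope on time with 1 array left out. The median HFC minus LFC difference over all probes was 0.01 as reported, -0.03 with quantile scaling and -0.23 with normexp. Slide as a random block was not run for HFC against LFC. The cause of these shifts was not tested.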
